A study of Mus musculus with 8 samples.

Results

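Genes whose transcripts rose late after tumour necrosis factor (TNF) in wild-type cells and in cells without the NF-kB subunits RelA and cRel were examined. The 9 genes, Hbegf, Nuak2, Slco4a1, F2rl1, Rgcc, Gadd45b, Slc20a1, Kctd11 and Klhdc8a, are 9 of the 45706 gene rows in the deposited count table. They were selected on measured values, because their levels at 45 and 60 min exceeded the level at 0 min in both genotypes, with no stated size of rise. Their late changes are therefore given as a description, and calls made on them are not read as support. Chromatin-associated RNA was sequenced from primary mouse embryonic fibroblasts (MEFs), cultured cells taken from embryos, here of strain C57BL/6. The genotypes were wild type (WT) and crel-/-rela-/- (knockout, KO). All cultures were held overnight in low serum, and TNF at 10 ng/ml was then given for 15, 45 or 60 min, while the 0 min cultures are labelled control. The series title places the samples in a study of how RelA target genes are regulated in the inflammatory response.

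Each genotype and time had 1 library, so the 8 libraries hold no replicates and a condition's own spread could not be measured. No untreated culture was taken at 15, 45 or 60 min, so an effect of TNF cannot be told apart from one of time, handling or longer low serum. The sources used here do not state the part removed from each allele, the number of embryos or whether cultures were separate, and p-values measure only the spread between these libraries.

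TNF binding to its receptor activates the kinases that release NF-kB dimers into the nucleus, where RelA and cRel carry the domains that activate transcription. The same receptor also switches on the MAP kinases ERK, JNK and p38, which act on other transcription factors such as AP-1 and the serum response factor. Immediate early genes answer such signals without new protein, and delayed early genes follow them. RNA held on chromatin is rich in transcripts still being made, so it follows transcription more closely than total RNA does.

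Libraries held 12359817 to 15607331 counts, of which 58.92% to 70.62% fell on 3 gene models (Gm26917, Gm42418 and Malat1), leaving 3948194 to 5644974 counts for all other genes. Levels are given as CPM, counts scaled to a library size adjusted with the TMM method of edgeR, and per kilobase of exon where genes are compared with each other. Summed over 12 fibroblast markers the level was 10500 to 14600 CPM, with every marker detected, and the erythroid sum was at most 0.216 CPM. The KO 0 min library stood apart from the later KO libraries in the sum of 8 cartilage and bone markers, 456 CPM against 36.0 to 65.3 CPM, and of 11 epithelial markers, 15.9 CPM against 2.47 to 4.37 CPM, with 5219 counts of the cartilage collagen gene Col2a1 against 91 to 389. The 12 leukocyte and macrophage markers summed to 54.7 to 74.3 CPM in WT and 7.0 to 9.01 CPM in KO, with Cd3e at 0 throughout, and the 10 endothelial markers to 6.51 to 8.67 CPM in WT and 14.2 to 20.4 CPM in KO, with Cldn5 at 0. Fewer cells of a type and less RNA per cell cannot be told apart in such samples, and the part of these differences in the results below was not tested. In the order 0, 15, 45 and 60 min, counts of Rela were 324, 406, 704 and 589 for WT and 306, 241, 291 and 324 for KO. Those of Rel, which encodes cRel, were 151, 173, 805 and 506 for WT, then 478, 308, 538 and 633 for KO. Since the deleted parts are unknown, these counts over whole genes check nothing about the labels.

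The stretch upstream of the start site is shown for the 4 genes with promoter entries that the results below turn on: Rgcc, which has the match to an NF-kB site, and Slco4a1, Gadd45b and Klhdc8a, whose levels differed between genotypes. Sequences are from RefSeq on GRCm38.p6, 5′ to 3′ on the gene's strand, and cover the bases from 170 to 21 before the start. Capitals mark every match to a searched motif on either strand.
Rgcc (chr14:79301656-79301805, minus strand): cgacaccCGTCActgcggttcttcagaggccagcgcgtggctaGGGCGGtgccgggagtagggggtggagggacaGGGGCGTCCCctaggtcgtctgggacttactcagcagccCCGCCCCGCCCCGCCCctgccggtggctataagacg
Slco4a1 (chr2:180456075-180456224, plus strand): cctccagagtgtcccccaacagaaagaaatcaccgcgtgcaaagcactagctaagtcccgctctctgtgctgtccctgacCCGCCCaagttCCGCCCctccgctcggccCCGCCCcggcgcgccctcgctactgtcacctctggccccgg
Gadd45b (chr10:80929921-80930070, plus strand): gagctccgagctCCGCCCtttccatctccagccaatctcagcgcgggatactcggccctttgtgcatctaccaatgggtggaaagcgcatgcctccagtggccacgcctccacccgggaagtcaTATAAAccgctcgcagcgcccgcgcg
Klhdc8a (chr1:132298456-132298605, plus strand): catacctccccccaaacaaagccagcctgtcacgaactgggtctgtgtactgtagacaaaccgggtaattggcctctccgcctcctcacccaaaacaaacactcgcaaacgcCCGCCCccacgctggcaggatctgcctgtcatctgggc
In the Rgcc stretch the capitals are a match to the kB site, 95 to 86 bases before the start, with GC boxes on both sides and a TGACG match on the other strand. In Gadd45b they are a TATAAA match 46 to 41 bases before the start and a GC box, and in Slco4a1 and Klhdc8a they are GC boxes alone.

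Windows of 300 bases, 250 before to 50 after each RefSeq start, were searched on both strands for 10 motifs in 8 windows of 6 of the genes, and in all 32851 windows of the table. Hbegf, Nuak2 and F2rl1 have no entry. The kB site, bound by NF-kB dimers, matched in Rgcc alone, 1 of 6 genes, and in 8.46% of all windows. The CArG box of the serum response factor matched in 0 of 6 genes and in 1.63% of windows, the CRE TGACGTCA in 0 and 1.79%, the C/EBP motif TTGCGCAA in 0 and 0.183%, and the ETS motif CCGGAA in 0 and 14.9%. The AP-1 motif TGANTCA matched in Kctd11 alone, 167 to 161 bases before the start, and in 7.81% of windows. TGACG, which every TGACGTCA contains, matched in Rgcc and Slc20a1 and in 20.8% of windows, the TEAD motif GGAATG in Kctd11 and Slc20a1 and in 14.7%, and TATAAA in Gadd45b and Slc20a1 and in 13.6%. The GC box GGGCGG matched in 6 of 6 genes, in 7 of their 8 windows, and in 35.7% of all windows. GC content was 52.0% and 55.7% in the downstream windows of Slc20a1 and Slco4a1. It was 59.7% to 73.0% in the rest, beside a median of 52.7% over all windows. A gene counts as matched if any of its windows matched, so shares of genes and of windows are not alike. A match describes letters in this window only, and these shares were not tested.

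The 9 genes rose by log2 fold changes of 1.39 to 3.07 in WT and 1.61 to 3.99 in KO, taking the mean of 45 and 60 min over 0 min, with medians of 1.82 and 2.30. Over all 15049 genes tested (at least 10 counts in at least 2 libraries) the medians were 0.00 and -0.01. Each of the 9 passed this count minimum, F2rl1 through its late libraries only, and Slco4a1 did so in KO through its late libraries. For background, the edgeR quasi-likelihood test at an adjusted p of 0.05 (Benjamini-Hochberg, as throughout) called 4.17% of genes higher and 1.31% lower in WT, and 1.32% higher and 0.518% lower in KO. Of the 9 genes edgeR called 9 higher in each genotype, and DESeq2 called 7 in WT and 6 in KO, leaving 3 in KO without an adjusted p. These values chose the genes, so the counts are read no further. They also depended on the settings: with no filter on counts the edgeR call was lost for 4 of the 9 in WT and 6 in KO. Rgcc in WT lost it in 6 of 13 alternatives, among them total counts and the fit without WT 45 min (1.52). Without KO 45 min it was lost in KO for F2rl1 (2.45), Rgcc (2.29) and Slco4a1 (3.84), and for Slco4a1 also without KO 60 min (4.13).
Of 12467 genes that averaged 20 counts or more, 77 were at least 2-fold above 0 min in all 4 late libraries, and the 9 genes are among them. Ordered by the smallest of the 4 rises, Slco4a1, F2rl1 and Nuak2 stood at places 2, 3 and 4, behind Klf10, which encodes a zinc finger repressor. Klhdc8a stood lowest of the 9, at place 35. These rises chose the genes, so the places are a description with no test. The place of F2rl1 rests on 31 against 7 counts in KO at 60 and 0 min. That log2 ratio was 2.47, with a counting interval of 1.26 to 3.90. For the order and the 2-fold numbers, 0.5 was added to each count. Against 15 min as a second baseline, 36 of the 77 were still at least 2-fold higher in all 4 late libraries, 5 of the 9 among them: Nuak2, Slco4a1, F2rl1, Gadd45b and Klhdc8a.

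**Figure D1:**
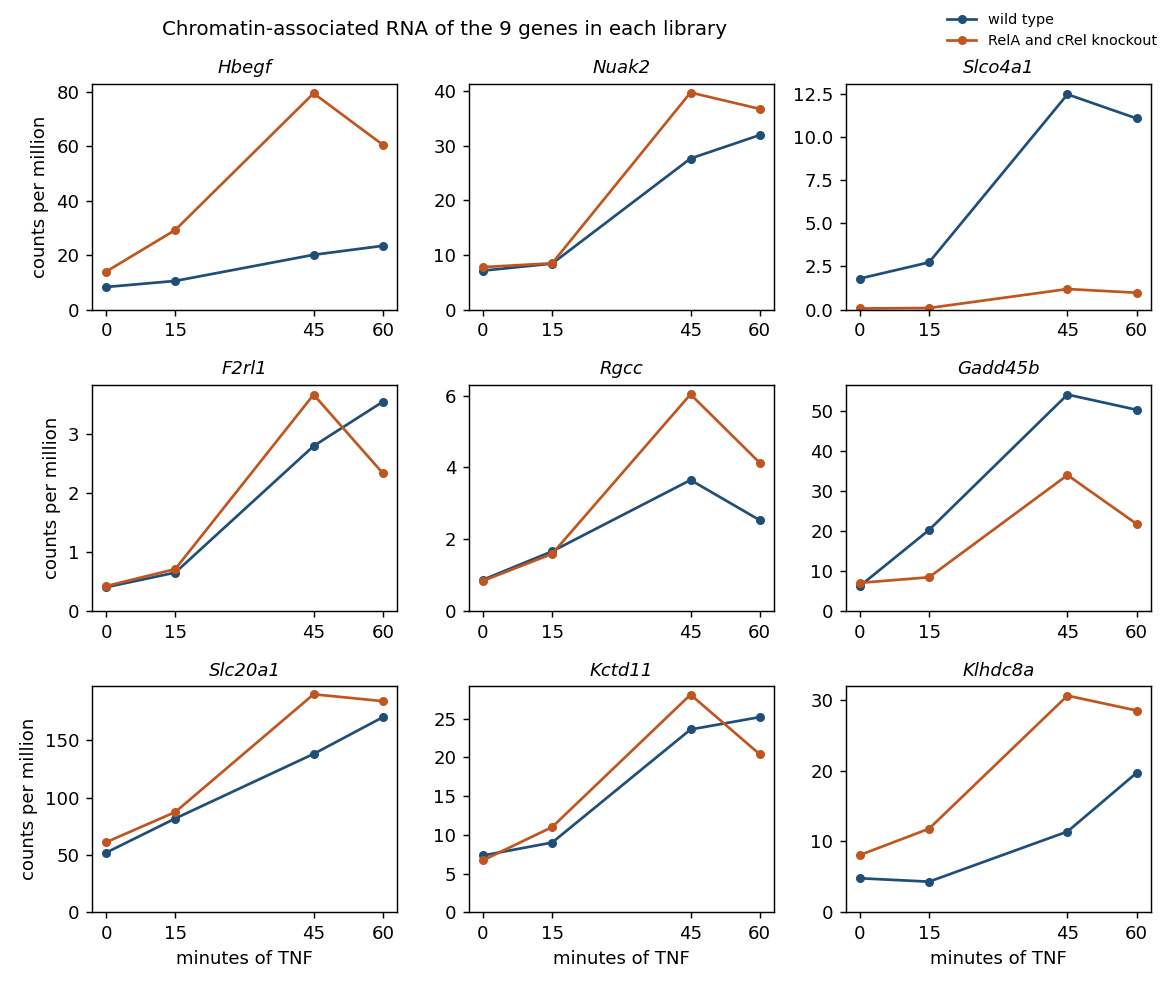
Level of each of the 9 genes in each library (y axis, CPM of the TMM-adjusted library size, from 0) against minutes of TNF (x axis), 1 point per library, WT in blue and KO in orange. In KO the highest point is at 45 min for all 9 genes, while in WT it is at 60 min for 6 of them. The knockout line lies near 0 for Slco4a1 and above the wild-type line at every time for Hbegf, Klhdc8a, Nuak2 and Slc20a1, though for Nuak2 the lines nearly meet at 15 min.

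Hbegf encodes a membrane-anchored ligand of the EGF receptor that is released by proteases (chromosome 18, 36504929 to 36515805, minus strand, mm10, 6 exon blocks). From 0 through 15 and 45 to 60 min the WT libraries held 124, 146, 281 and 323 of its counts, the KO libraries 232, 331, 999 and 805. Every KO library was above the WT library of its time, and the late KO libraries stood far above the rest. The rise over 0 min was 1.39 ± 0.24 in WT and 2.33 ± 0.23 in KO (log2 ± SE, here and below for fitted changes). Already at 15 min KO stood 2.11-fold above its 0 min library, with a 95% counting interval of 1.78 to 2.50, and WT 1.27-fold, 0.994 to 1.63.

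F2rl1 encodes protease-activated receptor 2, which trypsin-like proteases switch on by cutting it (chromosome 13, 95511732 to 95525240, minus strand, 2 exon blocks). Its counts, in the same order of times, were 6, 9, 39 and 49 for WT and 7, 8, 46 and 31 for KO, the lowest of the 9 genes in sum. All late libraries were above all early ones, and the genotypes overlapped. The rises were 2.96 ± 0.57 in WT and 2.81 ± 0.55 in KO, with wide errors at these counts.

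Nuak2 encodes a kinase related to AMPK and is a known target of the coactivator YAP (chromosome 1, 132316126 to 132333488, plus strand, 9 exon blocks). The WT libraries gave 107, 117, 387 and 442 counts, and the KO libraries 130, 96, 501 and 490. Levels at 0 and 15 min lay between 7.13 and 8.48 CPM in both genotypes, and the late ones between 27.7 and 39.8 CPM. The fitted rises were 2.06 ± 0.22 and 2.30 ± 0.21, and the 15 min libraries differed from 0 min by less than their counting error, at 0.24 (-0.15 to 0.63) in WT and 0.12 (-0.27 to 0.52) in KO on the log2 scale.

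Klhdc8a, a gene for a kelch-repeat protein, lies beside Nuak2 on the same strand (chromosome 1, 132298626 to 132307357, 5 exon blocks). The gap between them is 8768 bases and holds 0 other gene rows. For Klhdc8a the counts were 72, 60, 159 and 272 for WT and 135, 134, 385 and 379 for KO, so each KO library exceeded the WT library of its time. The rises were 1.69 ± 0.32 and 1.87 ± 0.30. In WT its level was still climbing between 45 and 60 min, from 11.4 to 19.7 CPM, a log2 ratio of 0.79 with a counting interval of 0.50 to 1.08, while in KO it stood at 30.6 and 28.5 CPM. The 15 min libraries also parted: -0.15 (-0.67 to 0.36) in WT and 0.55 (0.20 to 0.91) in KO, as log2 ratios to 0 min.

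Gadd45b encodes a stress sensor that binds MAP kinase kinases and is a known NF-kB target (chromosome 10, 80930091 to 80932204, plus strand, 4 exon blocks, the shortest span of the 9). It reached 93, 280, 753 and 694 counts in the WT series against 117, 95, 427 and 289 for KO. The genotypes differed by less than counting error at 0 min and parted at 15 min, where WT stood 3.25-fold above 0 min (counting interval 2.56 to 4.16) and KO differed from 0 min by less than its counting error, at 0.26 (-0.14 to 0.66) on the log2 scale. Late, all 4 libraries were above every early library, and the fitted rises were 3.07 ± 0.29 in WT and 1.99 ± 0.27 in KO.

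Rgcc encodes a regulator of the cell cycle and a known target of TGF-beta (chromosome 14, 79288756 to 79301645, minus strand, 5 exon blocks). Few reads covered it, with 13, 23, 51 and 35 counts for WT and 14, 18, 76 and 55 for KO. The early libraries of both genotypes overlapped, and the KO libraries were the higher ones late. The rises were 1.82 ± 0.48 and 2.59 ± 0.46, and in WT the value was 0.90 with the 15 min baseline.

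Kctd11 encodes an adaptor of the Cullin 3 ubiquitin ligase that restrains Hedgehog signalling (chromosome 11, 69878261 to 69881406, minus strand, a single exon block). The 4 WT libraries had 110, 125, 330 and 349 counts and the 4 KO libraries 112, 124, 353 and 272. The genotypes overlapped early and late, with rises of 1.74 ± 0.25 and 1.85 ± 0.25.

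Slc20a1 encodes the phosphate transporter PiT-1 (chromosome 2, 129198764 to 129211616, plus strand, 11 exon blocks). It was the most counted of the 9, with 779, 1135, 1927 and 2355 counts for WT, and 1020, 989, 2394 and 2444 for KO. After scaling, its level was higher at 15 min than at 0 min in both genotypes beyond counting error, by log2 ratios of 0.65 (0.52 to 0.79) and 0.52 (0.39 to 0.64), and higher again late, with rises of 1.57 ± 0.19 and 1.61 ± 0.19. Exons of 2 genes on the opposite strand, Gm4430 and 9830144P21Rik, overlap its exons, and the sources used here do not state whether counting used strand, so its counts are uncertain.

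Slco4a1 encodes an organic anion transporter that carries thyroid hormone (chromosome 2, 180456245 to 180474867, plus strand, 12 exon blocks). The 4 WT libraries held 27, 38, 175 and 153 counts, but the KO libraries only 1, 1, 15 and 13. Every WT library exceeded every KO library, yet late libraries exceeded early ones within each genotype. In WT the rise was 2.71 ± 0.33. In KO the fitted rise of 3.99 ± 0.82 rests on 1 count at 0 min, and the 45 min library stood 19.9-fold above it with a counting interval of 3.07 to 839.

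Per kilobase of exon, mean levels over the 8 libraries ran from 21.6 ± 10.2 CPM for Slc20a1 and 19.9 ± 15.0 for Gadd45b through 12.9 ± 10.8 for Hbegf, 5.36 ± 3.67 for Nuak2, 5.22 ± 2.80 for Kctd11, 3.49 ± 2.40 for Klhdc8a and 2.90 ± 1.99 for Rgcc to 0.793 ± 1.05 for Slco4a1 and 0.658 ± 0.516 for F2rl1 (SD, n = 8, times and genotypes together). Neighbours in this order differed by less than the larger of their SDs, except Rgcc and Slco4a1. The genes were shorter than most: the median span from first to last exon was 12900 bases beside 19500 for all tested genes, with a median of 5 exon blocks beside 8. No test was made of these features.

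With the 15 min library as baseline in place of 0 min, which leaves out the KO 0 min library that stood apart, all 9 log2 values were above 0, but the edgeR call was lost for Rgcc in WT and for Slco4a1, F2rl1, Rgcc, Kctd11 and Klhdc8a in KO. In WT they ran from 0.90 for Rgcc and 0.92 for Slc20a1 to 2.27 for F2rl1, and in KO from 1.10 for Slc20a1 and 1.14 for Kctd11 to 3.49 for Slco4a1. Hbegf went from 2.33 to 1.26 in KO and Gadd45b from 3.07 to 1.37 in WT, the genes with the highest ratio of 15 over 0 min in those genotypes. Scaling by total counts moved the median of all genes by -0.22 in WT and -0.21 in KO, and the 9 genes still lay above 0, the lowest being Hbegf at 1.19 in WT and Slc20a1 at 1.41 in KO. All of these values use the late libraries that chose the genes, so they and the calls are read no further.

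**Figure D2:**
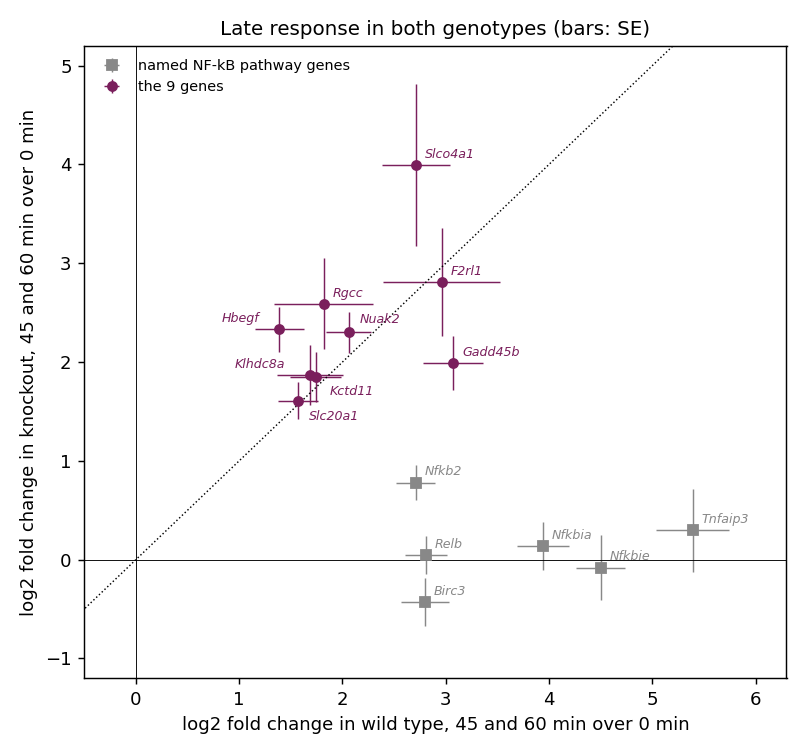
Log2 fold change of the mean of 45 and 60 min over 0 min in WT (x axis) and in KO (y axis), with standard errors as bars and equality as the dotted line. The 9 genes (purple circles) lie above 0 on both axes by their selection, with Gadd45b below the line and Hbegf above it, while the 6 named NF-kB pathway genes (grey squares) lie between 2.71 and 5.39 in WT and between -0.43 and 0.78 in KO. The squares were named for their calls in these late contrasts or their difference, so their place also follows from their selection.

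The difference of the late responses, WT minus KO, is built from the values that chose the genes, so for the 9 it is a description with no test. Hbegf stood at -0.94 ± 0.32 and Gadd45b at 1.08 ± 0.38, the values farthest from 0 relative to their errors. The other 7 ran from -1.28 ± 1.04 for Slco4a1 to 0.15 ± 0.91 for F2rl1, and the smallest errors were those of Slc20a1, at -0.05 ± 0.25, and Nuak2, at -0.24 ± 0.29. With 15 min as baseline Gadd45b stood at -0.36, Kctd11 at 0.30, Klhdc8a at 0.52 and Hbegf at -0.21. Over all genes, as background for the lists of other genes given later, edgeR called 0.492% with the larger response in WT and 0.00664% with the larger response in KO.

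The level between genotypes was tested over all 8 libraries with the 4 times as blocks. The choice of genes did not use this contrast, but it did use the 0, 45 and 60 min libraries, so the test is not fully separate from it. By edgeR 4 of the 9 were called, 2 higher in WT and 2 higher in KO, beside 9.44% of all genes higher in WT and 6.81% higher in KO. DESeq2 also called 4 of 9, beside 961 genes higher in WT and 574 higher in KO over all genes. Slco4a1 was 12.4-fold higher in WT, by 3.63 ± 0.24 (edgeR adjusted p = 1.27e-05), and its WT library was the higher at all 4 times. Hbegf was 2.69-fold higher in KO, at -1.43 ± 0.16 (edgeR adjusted p = 0.000273), again at 4 of 4 times. Klhdc8a was 2.02-fold higher in KO, at -1.02 ± 0.16 (edgeR adjusted p = 0.0022), at 4 of 4 times. Gadd45b was 1.73-fold higher in WT, at 0.79 ± 0.19 (edgeR adjusted p = 0.0187), at 3 of 4 times and not at 0 min, where the WT to KO log2 ratio was -0.17 (-0.58 to 0.23).
At 0 min the WT to KO log2 ratios of Hbegf and Klhdc8a were -0.75 (-1.07 to -0.43) and -0.75 (-1.18 to -0.33), with counting intervals. These rest on the KO 0 min library that stood apart in its markers, so a KO excess before TNF is uncertain. At 45 min they were -1.98 (-2.18 to -1.79) and -1.43 (-1.70 to -1.16). Slco4a1 at 0 min had 27 counts in WT against 1 in KO, a ratio of 30.1 with a counting interval of 4.96 to 1230. Without the KO 0 min library the 4 fitted genotype values were 3.54 for Slco4a1, -1.62 for Hbegf, -1.08 for Klhdc8a and 1.02 for Gadd45b, all still called. They then rest on the later times and cannot check the ratios at 0 min.
The remaining 5 were not called: Rgcc at -0.46 ± 0.22, Nuak2 at -0.24 ± 0.11, Slc20a1 at -0.23 ± 0.08, Kctd11 at -0.02 ± 0.12 and F2rl1 at 0.05 ± 0.26. Nuak2 and Slc20a1, though uncalled, were also the higher in KO at every time. For Kctd11 the range of 2 standard errors either side was -0.26 to 0.22, and its sign turned to 0.16 with total counts, which moved the median of all genes by 0.17. From the 45 and 60 min libraries alone Rgcc (-0.71), Nuak2 (-0.36) and Slc20a1 (-0.28) were called higher in KO. Over all genes this setting also called more, 1943 higher in WT and 1435 higher in KO, against 1421 and 1025 with all 8 libraries. It rests on the late libraries that the choice of genes used, so these 3 calls are read no further.
The call of Gadd45b was lost on leaving out any 1 library of 15, 45 or 60 min of either genotype, with values of 0.63 to 0.84. A library left alone in its time block says nothing about genotype, so leaving out WT or KO at one time is the same check. Without the time blocks Gadd45b (0.88), Hbegf (-1.55) and Klhdc8a (-0.97) were not called. The marker sums given above also differed between genotypes, and their part was not tested.

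**Figure D3:**
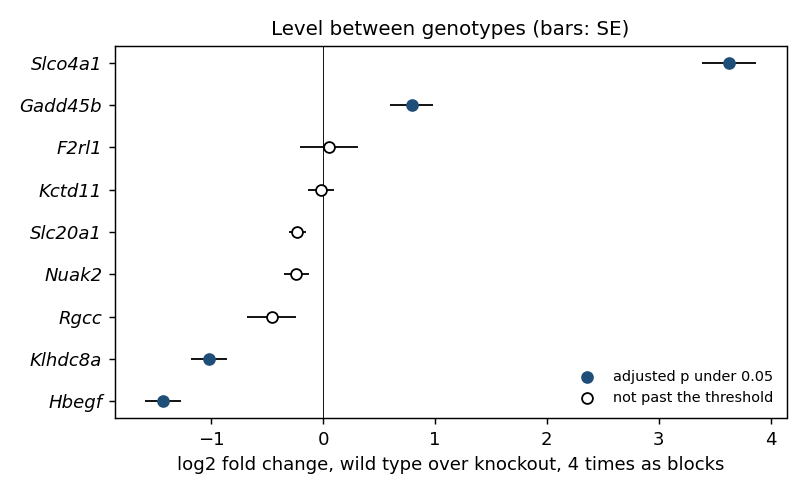
Log2 fold change of WT over KO with standard errors for each of the 9 genes (x axis), over 8 libraries with the 4 times as blocks, where filled points have an edgeR adjusted p under 0.05. Slco4a1 (3.63) and Gadd45b (0.79) are the filled points on the WT side, and Hbegf (-1.43) and Klhdc8a (-1.02) those on the KO side.

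The 45 and 60 min libraries, which the choice of genes treated alike, were compared over both genotypes. By edgeR 0 of the 9 genes were called, with 0 at an unadjusted p under 0.05, and DESeq2 also called 0, leaving 3 without an adjusted p. Over all genes edgeR called 0.0% higher and 0.0133% lower at 60 min, and DESeq2 called 16 genes higher and 22 lower. By edgeR 10.0% of all genes had an unadjusted p under 0.05, so 0 of 9 says little about these genes. Rgcc was lowest at -0.54 ± 0.27, Gadd45b was at -0.35 ± 0.25, and Klhdc8a was highest at 0.32 ± 0.21.
Within genotypes the single libraries differed. In KO all 9 genes were lower at 60 than at 45 min, with a median log2 ratio of -0.39 and a range of -0.65 to -0.05, beside 0.00 over all tested genes. Of all tested genes 50.3% were higher at 60 min in KO. Counting intervals lay below 0 for Gadd45b (-0.65, -0.87 to -0.43), Kctd11 (-0.46, -0.69 to -0.23), Hbegf (-0.39, -0.53 to -0.26) and Rgcc (-0.55, -1.08 to -0.03). In WT 6 of the 9 were higher at 60 min, beside 50.8% of all tested genes, and the median was 0.20 beside 0.01 over all tested genes. There the interval lay above 0 for Klhdc8a and for Slc20a1 (0.30, 0.21 to 0.39), and Nuak2 reached it (0.20, 0.00 to 0.41). With total counts, a scaling added after the data were seen, 5 of 9 were lower in KO and 7 of 9 higher in WT, and the median of all genes then moved to 0.37 and 0.12. With total counts less the 3 largest gene models, also added later, all 9 were lower in KO and 6 of 9 higher in WT. The median of the 9 less that of all genes was -0.4 in KO and 0.2 in WT. A change of scaling shifts the 9 and all genes alike, so this difference cannot change with it and checks nothing. All of these values compare 1 library with another, with no replicate check.

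**Figure D4:**
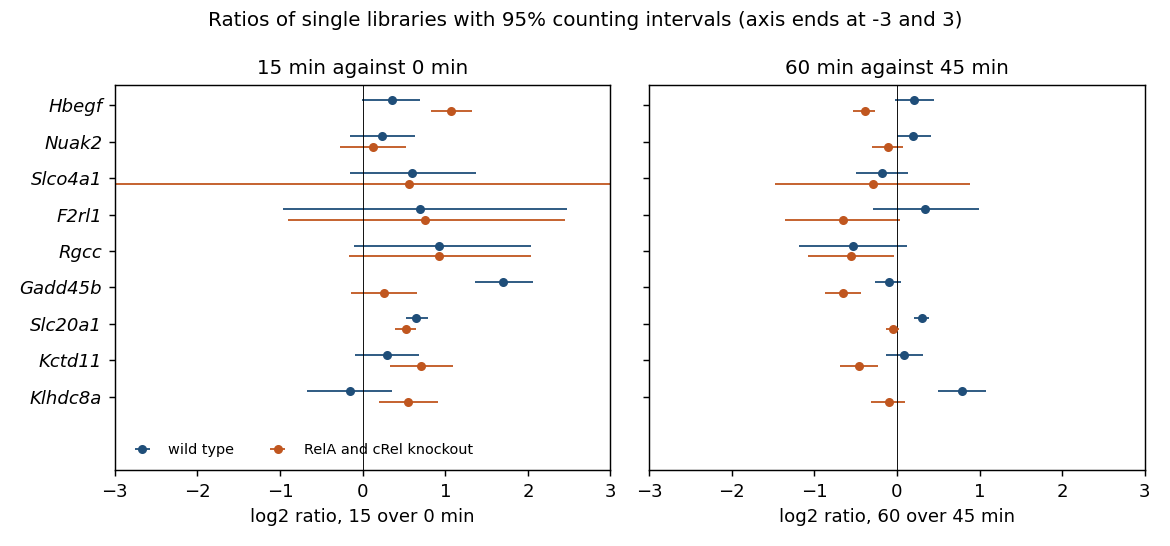
Log2 ratio of 15 over 0 min (left) and of 60 over 45 min (right) for each of the 9 genes, WT in blue and KO in orange, with exact 95% counting intervals as bars. On the left the highest points are Gadd45b in WT (1.70) and Hbegf in KO (1.07), each overlapped by the intervals of F2rl1, Rgcc and Slco4a1 in its genotype and that of Hbegf also by those of Kctd11 and Klhdc8a, and on the right all 9 KO points lie below 0.

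Over the 8 libraries F2rl1, Kctd11, Nuak2 and Slc20a1 followed the mean profile of the other 8 genes most closely (Pearson r of log2 CPM 0.992, 0.987, 0.966 and 0.959), then Rgcc (0.915), Gadd45b (0.899), Klhdc8a (0.740), Hbegf (0.628) and Slco4a1 (0.434). The genes were chosen for late levels above 0 min in both genotypes, which favours high correlations, so these are a description with no test. They cover 8 libraries that share 2 baselines. Both genotypes enter together, so a level gap between genotypes counts in r beside the time course. That gap was largest for Slco4a1 (3.63), Hbegf (-1.43) and Klhdc8a (-1.02), and its part in their r was not tested. Among 9156 other genes averaging 50 counts or more, the 10 with the profile most like the mean of the 9 had r of 0.975 to 0.985: Pxdc1, Cdv3, Bhlhe41, Atp13a3, Appbp2, Tfe3, Zbtb49, Ptpn11, Tgif2 and Klf10. Klf10 counts were 72, 90, 982 and 988 for WT and 117, 101, 820 and 626 for KO. Those of Bhlhe41, a clock repressor gene, were 188, 166, 476 and 603 for WT and 155, 160, 508 and 503 for KO. Zbtb49 had late log2 changes of only 0.54 in WT and 0.46 in KO, so a like profile does not mean a like size.

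The pathways these genes belong to were followed in lists of other genes, counted by edgeR calls against the shares given above for each comparison, which share the 0 min libraries. With no filter on counts the call was lost for 13 of the 37 list genes called in WT among those the naming rule selects, 17 of 17 in KO and 6 of 11 differences, and against 15 min for 12, 12 and 7. With total counts it was lost for 10, 11 and 2. Among 14 other genes of EGF receptor ligands and their sheddases, 3 rose in WT and 1 in KO, with medians of 0.08 and 0.06. Rhbdf1, a cofactor of the protease that sheds such ligands, rose in both, by 1.49 ± 0.17 and 0.74 ± 0.17, and its relative Rhbdf2 rose in WT (1.95 ± 0.24) and stood at 0.21 ± 0.24 in KO, a called difference of 1.74 ± 0.33. Lrig1, an inhibitor of the receptor, rose in WT by 0.95 ± 0.25. Areg, Epgn and Btc were under the count minimum. Calls were lost for Rhbdf1 in KO without KO 45 min (0.79) or 60 min (0.70) and with total counts, for Lrig1 without WT 60 min (0.58), and for the difference of Rhbdf2 without KO 45 min (1.48), with total counts (1.71), with no filter or 20 counts as the minimum (1.74) and against 15 min (1.73). In KO 0 of the 14 rose with total counts and 0 against 15 min.
Of 30 delayed early genes of the ERK pathway 10 rose and 1 fell in WT, 5 rose and 1 fell in KO, and medians were 0.62 and 0.26. Rises in both genotypes were called for Sphk1, a sphingosine kinase gene (1.93 ± 0.26 and 1.84 ± 0.23), Dusp4, a MAP kinase phosphatase gene (1.02 ± 0.26 and 1.42 ± 0.24), Fosl2 (0.65 ± 0.17 and 0.91 ± 0.17), Ier3 (2.29 ± 0.32 and 1.49 ± 0.31) and the cytokine gene Lif (3.14 ± 0.26 and 1.18 ± 0.24), whose response was larger in WT by 1.97 ± 0.34 (not called against 15 min, at 0.84, or with no filter, at 1.96). Sphk1 counts were 51, 55, 169 and 191 for WT and 101, 88, 287 and 272 for KO. Against 15 min 3 of the 30 were higher and 3 lower in WT, with Ier3 at -0.12, and 1 was higher and 2 lower in KO, while total counts gave 6 and 2 in WT and 1 and 1 in KO. Calls were lost in KO for Ier3 (1.03) and Lif (0.92) without KO 45 min, and in WT for Dusp4 (1.03 and 0.98) and Fosl2 (0.60 and 0.67) without WT 45 or 60 min.
Of 14 other TGF-beta and SMAD target genes 6 rose in WT and 5 in KO, with medians of 0.75 and 0.77. Named among them are Smad7, an inhibitor of the pathway (1.78 ± 0.22 and 1.47 ± 0.21), Tgfb1, a ligand (1.59 ± 0.21 and 1.46 ± 0.22) and the repressor gene Tgif1 (2.11 ± 0.19 and 1.15 ± 0.18), and 0 of the 14 differed in response by edgeR. In KO the count was 1 of 14 with total counts and 2 of 14 against 15 min. In level, 6 of the 14 were higher in KO and 1 in WT.

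Relatives of the 9 genes and their partners were counted in the same way. Of 14 other AMPK-related kinase genes 2 rose in WT and 1 in KO: Nuak1, the closest relative of Nuak2, in both (1.45 ± 0.19 and 0.96 ± 0.18) and Sik1 in WT (1.58 ± 0.18, against 0.16 ± 0.18 in KO, a called difference of 1.42 ± 0.25, lost without KO 45 min or with total counts at 1.41, with no filter at 1.42 and against 15 min at 0.94). Of 14 other genes of the GADD45 family and stress kinase relays 2 rose in WT and 0 in KO, Map3k8 (2.89 ± 0.22, against -0.56 ± 0.22) and Map2k3, with 340, 395, 755 and 615 counts in the WT series. Of 12 other genes of protease-activated receptor signalling 2 rose and 1 fell in WT and 2 fell in KO. Rgs2, which damps G protein signals, fell in both (-1.72 ± 0.29 and -1.14 ± 0.26), Gna13 and Rgs4 rose in WT, and Arrb1 fell in KO by 1.35 on the log2 scale. Calls were lost for Rgs4 without WT 60 min (1.26), for Arrb1 without KO 45 min (-1.21) and for Rgs2 in KO without KO 45 min (-1.24) or 60 min (-1.05). Of 5 other tested phosphate and organic anion transporter genes 1 rose in WT, Slco5a1, with 6, 3, 59 and 86 counts, while KO had 14, 8, 4 and 12. Of 20 other KCTD and kelch adaptor genes 1 rose in WT, Tnfaip1 (0.69 ± 0.19, lost without WT 45 or 60 min at 0.63 and 0.72), and 0 in KO. Of 15 other cell cycle inhibitors and partners of RGCC 2 rose in WT, Cdkn2b (1.22 ± 0.25) and Btg1 (0.89 ± 0.18), and 0 in KO, while with total counts 0 rose in WT. Of 23 other YAP and TAZ target genes 3 rose in WT and 1 in KO, where Ajuba rose in both (0.71 ± 0.17 and 0.86 ± 0.17) and Axl and Crim1 in WT. Ajuba was lost without WT 45 min (0.73), WT 60 min (0.67) or, in KO, KO 60 min (0.81), and Axl without WT 60 min (0.57). With total counts the numbers that rose in WT were 1 for the YAP and TAZ list, 1 for the GADD45 list, 1 for the receptor signalling list and 0 for the KCTD list, and in KO 0 for the YAP and TAZ list and 0 for the AMPK-related list. Against 15 min 1 rose for receptor signalling and 0 for KCTD in WT, and 0 in KO for the AMPK-related and YAP and TAZ lists.

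For contrast, of 16 NF-kB subunit, inhibitor and A20 genes 14 rose in WT and 1 in KO, with medians of 2.50 and -0.02, and 11 had a larger response in WT. The call in KO was Nfkb2 (0.78 ± 0.18), lost without WT 0 min (0.77), KO 45 min (0.80) or KO 60 min (0.76). Total counts gave 11 in WT and 0 in KO, and the 15 min baseline 9 and 0. Tnfaip3, which encodes A20, reached 109, 1086, 5115 and 3368 counts in the WT series but 42, 22, 51 and 29 for KO. Of 16 AP-1 and EGR immediate early genes 3 rose and 1 fell in WT and 1 fell in KO, with medians of 0.28 and -0.34. Fos fell late in both genotypes after its highest counts at 15 min, 448 in WT and 866 in KO (without KO 60 min its KO value was -0.86, uncalled), and Junb, Zfp36 and Nr4a3 rose in WT. Against 15 min 6 of the 16 were lower in WT and 9 in KO, with 0 higher. On that baseline Junb and Zfp36 stood at -0.20 and -0.80 in WT.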

How the data were processed

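Ribosomal RNA was removed from chromatin-associated RNA, and stranded single-end libraries were sequenced, per the labels' protocols. The submitters' processing notes name cutadapt 1.12, STAR, featureCounts 1.5.0, DESeq2 and mm10. The authors deposited raw counts per gene as whole numbers, beside exon coordinates and lengths, per the file headers. The length equalled the merged exon length in 100.0% of rows, so the counts were read as exonic. The sources used here do not state the strand setting, the handling of multi-mapping reads or the annotation release. Symbols were found for 98.77% of 45706 rows, and 0 columns of per-sample values were unmapped. Every pair of libraries differed beyond sampling noise (chi-square over degrees of freedom at least 7.73).

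The 15049 genes that reached 10 counts in 2 or more libraries were tested by quasi-likelihood in edgeR 4.0.16 (R 4.3.3) after TMM scaling, with factors of 0.817 to 1.21. P-values were Benjamini-Hochberg adjusted over all of them, with a threshold of 0.05. Late responses came from 6 cell means with 45 and 60 min pooled as 1 cell (2 residual degrees of freedom), and genotype and 60 against 45 min from genotype plus time (3 residual degrees of freedom). Standard errors are the log2 fold change over the square root of F. Single-library ratios carry exact Clopper-Pearson intervals at 95%, which cover counting error only, since each genotype and time had 1 library. Reads copied by PCR are not independent molecules, so these intervals may be too narrow even for that. Alternatives were DESeq2 1.42.0, other scalings, filters, baselines and times, no time block, and leaving out each library.

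The 9 genes, the 12 gene lists and the 9 marker lists were chosen with earlier results of these data known. Named genes are the 9, the members of each list called in a late contrast or in the difference (at most 4 of smallest p each), and the 10 of most similar profile. A gene that this rule names is not reported here. Figures were drawn with matplotlib 3.10.9.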

Additional observations from a re-analysis of the deposited data

Results flagged for a closer look

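Between 45 and 60 min the medians of the 9 genes had opposite signs in the 2 genotypes: the median log2 ratio of 60 over 45 min was 0.20 in WT, where 6 of 9 were higher, and -0.39 in KO, where all 9 were lower. Over all tested genes 50.8% were higher at 60 min in WT and 50.3% in KO, so the 6 of 9 in WT is not far from that share. Slco4a1, Rgcc and Gadd45b were lower at 60 min in both. The difference between the genotypes was not tested, since each value compares 1 library with 1 other.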

How the results depend on the processing

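Counts of called genes, for all tested genes, moved as follows (cause not tested unless genes or libraries were removed). Late WT, 628 higher and 197 lower: DESeq2 379 and 47, total counts 304 higher, no filter 248 and 30, 15 min baseline 130 lower. Late KO, 198 and 78: DESeq2 16 lower, total counts 57 and 156, no filter 8 and 9, 15 min baseline 72 higher, leaving out 1 library 136 to 459 higher and 33 to 317 lower. Response larger in WT (74) or KO (1): DESeq2 0 in KO, total counts 2 in KO, no filter 14 and 0, 15 min baseline 19 and 0, leaving out 1 library 51 to 153 and 0 to 12. Genotype, 1421 higher in WT and 1025 in KO: DESeq2 574 in KO, total counts 2902 and 477, no time block 708 and 359, leaving out 1 library 734 to 1450 and 410 to 975. Between 45 and 60 min, 0 higher and 2 lower (770 and 739 unadjusted, by edgeR): DESeq2 16 and 22, total counts 75 higher, no filter 126 and 105, at least 20 counts 0 lower, 45 and 60 min libraries alone 383 and 281, leaving out 1 library 0 to 2 lower. Total counts changed the share of calls that were higher from 76.1% to 52.1% in late WT, from 71.7% to 26.8% in late KO and from 58.1% to 85.9% for genotype. With total counts, which moved the median of all genes to 0.37, 5 of the 9 genes were lower at 60 min in KO, not 9. With total counts less the 3 largest gene models, all 9 were lower. With the 15 min baseline Ier3 (-0.12), Junb (-0.20) and Zfp36 (-0.80) changed sign in WT. WT and KO were paired by time in the genotype test, and no pairing by replicate exists, since each genotype and time had 1 library. Late responses without their own 0 min library could not be estimated. F2rl1, Rgcc and KO Slco4a1, with few counts, limit what depth allows.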
